A study of Mus musculus with 8 samples.

Results

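The cathepsins are proteases that work mostly inside lysosomes, and 10 of their genes were followed here through developing T cells of the thymus from 2 mouse strains. The members Ctsl, Ctse, Ctss, Ctsb, Ctsd, Ctsh, Ctsz, Ctsa, Ctsc and Ctsw were taken by symbol from a list, 10 of the 23420 gene symbols in the count files. RNA sequencing counted their transcripts in wild-type mice that the library names call B6 and BALB, with no substrain given. From each strain, DP thymocytes were sorted as CD4+ and CD8+ cells that lacked CD69, which appears on T cells soon after activation, and that stained weakly to moderately with H57, which recognises the beta chain of the T cell receptor. Whole thymocytes hold these cells together with earlier precursors, mature CD4 or CD8 cells and whatever other thymus cells came along. Each of the 4 groups had 2 libraries, and no label says that they came from separate animals. The p-values therefore measure only the spread between these libraries, which may be technical. In BALB whole thymocytes that spread is not technical alone, since sex-linked transcripts, given below, differed between the libraries. The labels give no age, sex, treatment or pooling.

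Cathepsins are made as inactive precursors, sorted to endosomes and lysosomes, mostly through mannose 6-phosphate receptors, and activated there at acidic pH. Ctsb, Ctsc, Ctsh, Ctsl, Ctss, Ctsw and Ctsz encode cysteine proteases, Ctsd and Ctse aspartic proteases, and Ctsa a serine carboxypeptidase. In the thymus they are known mainly from antigen-presenting cells, where cathepsin L of cortical epithelium and cathepsin S of dendritic cells and B cells degrade the invariant chain that guards MHC class II molecules.

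Reference promoter sequence, 250 bases before to 50 after a gene's start, was matched for 6 of the 10 members in the RefSeq table (GRCm38.p6), which is the C57BL/6J sequence and not that of BALB mice. It was searched for CACGTG, the E-box that MiT/TFE factors such as Tfeb can bind at lysosomal genes and that reads the same on both strands, and on both strands for GAAANNGAAA, the core of the interferon-stimulated response element. CACGTG was in 2349 of 32851 such promoter windows (7.15%) and GAAANNGAAA in 1131 (3.44%), and no member's window held both. The windows of Ctsl, Ctsd and Ctsa, the last at 1 of its 2 listed starts, held CACGTG, that of Ctss held GAAANNGAAA, and those of Ctsz and Ctsc held neither. All matches in these windows are shown, 1 in Ctsl, 2 in Ctsd, 2 in Ctsa and 1 in Ctss. The part of these motifs in the strain and population differences was not tested. Each line runs 5′ to 3′ on the gene's own strand, with the motif in capitals.
Ctsl, chr13:64370739-64370768, minus strand: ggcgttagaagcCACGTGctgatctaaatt
Ctsd, chr7:142388048-142388077, minus strand: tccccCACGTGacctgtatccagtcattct
Ctsd, chr7:142387908-142387937, minus strand: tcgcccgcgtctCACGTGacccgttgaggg
Ctsa, chr2:164833749-164833778, plus strand: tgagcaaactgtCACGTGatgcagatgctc
Ctsa, chr2:164833766-164833795, plus strand: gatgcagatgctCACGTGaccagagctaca
Ctss, chr3:95526755-95526784, plus strand: gtctttaaatGAAACCGAAAtgaaagttca
The Ctsl match began 236 bases before the listed start, the Ctsd matches 245 and 98 bases before it, and the Ctss match 21 bases before it. GENCODE M21 has longer transcripts, so that the Ctsl, Ctsa and nearer Ctsd matches lie inside the annotated genes, and 48 of the 250 bases before the listed start were annotated exon for Ctsl, 211 for Ctsd and 164 for that start of Ctsa. A match describes letters in the reference and shows no binding.

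Counts in genes ran from 2632083 to 5974684 per library, and levels are given as CPM, counts scaled to the library size after TMM correction, with 1 count worth 0.175 to 0.388 CPM. All 10 members had counts and were among the 11409 genes tested, but Ctss and Ctsh were under the filter's level of 2.54 CPM in DP thymocytes of both strains and Ctsw in those of BALB, so these passed only through groups where they were higher. Of the DP marker list, which includes Rag1 and Cd8a, the summed level was 20300 to 21100 CPM in B6 DP and 13600 to 13700 in BALB DP, against 12500 to 13200 and 9540 to 10200 in whole thymocytes. Libraries stood apart within BALB. DP replicate 1 held 3.14% of its gene counts in Rn45s against 5.11% to 8.35% in the other 7 libraries, and whole replicate 1 held 12313 Xist and 0 Ddx3y counts, while the others held 6 to 203 and 444 to 1177. By these sex-linked transcripts, BALB whole replicate 1 differed in sex from the other 7 libraries. Results that rest on BALB DP replicate 1 or BALB whole replicate 1 are given without them where that changes a call.

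**Figure D1:**
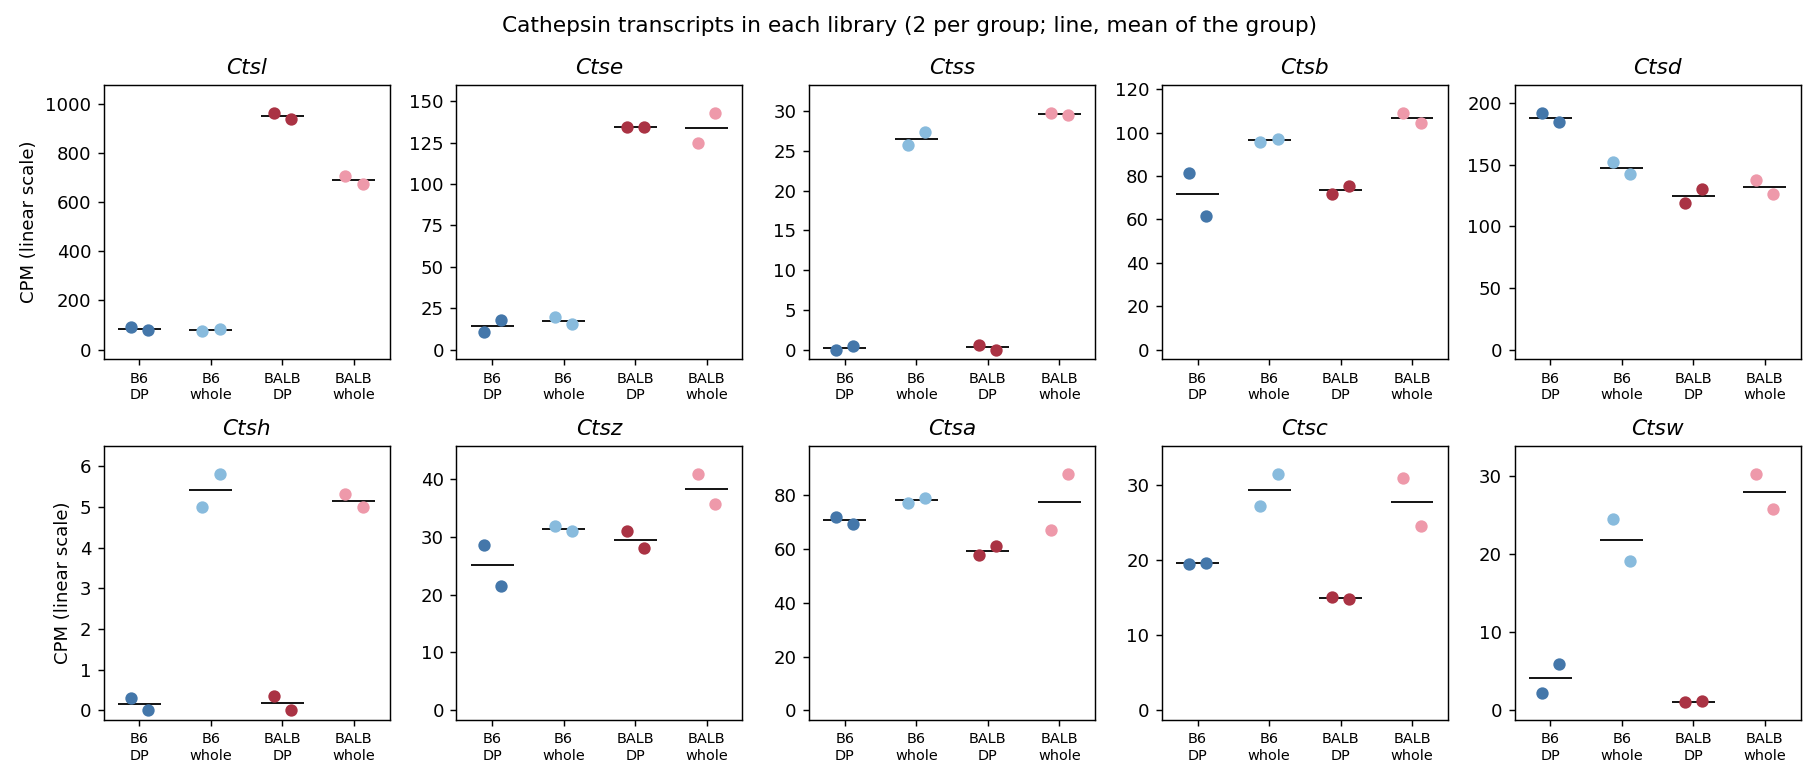
Level of each cathepsin in each of the 8 libraries, in CPM on a linear scale that differs between panels, with 2 points per group and a line at the group mean. Ctsl and Ctse separate by strain, and Ctss, Ctsh and Ctsw by population.

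The strains differed most in Ctsl and Ctse, both far more abundant in BALB than in B6 and in both populations. Ctsl (chr13:64359337-64370890, minus strand, GRCm38), an endopeptidase, was at 90.7 and 78.4 CPM in B6 DP thymocytes, from 289 and 343 counts, and at 962 and 940 in BALB DP, from 5492 and 2421 counts. In whole thymocytes it was at 73.7 and 84.9 CPM in B6 and at 709 and 675 in BALB. Every BALB library lay above every B6 library, with no overlap between the strains in either population. The fold was 11.3 in DP thymocytes (log2 fold change 3.49 ± 0.12, SE, adjusted p = 7.88e-09) and 8.72 in whole thymocytes (3.12 ± 0.12, adjusted p = 2.44e-08) in the quasi-likelihood test of edgeR, with p adjusted by Benjamini and Hochberg over all genes. Ctsl ranked 3 by p among the 11409 genes in each of these comparisons.

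Ctse (chr1:131638306-131675505, plus strand), an aspartic protease of endosomes known from gastric and immune cells, was at 10.4 and 17.6 CPM in B6 DP and 135 and 134 in BALB DP thymocytes. It was at 19.8 and 15.2 CPM in B6 whole and 125 and 143 in BALB whole thymocytes. The B6 and BALB libraries again did not overlap, and the DP and whole libraries of a strain lay close together. The log2 fold change was 3.23 ± 0.20 in DP (9.37-fold, adjusted p = 1.53e-06) and 2.94 ± 0.19 in whole thymocytes (7.65-fold, adjusted p = 3.81e-06). Without replicate 1 of both BALB groups the values were 3.47 and 3.07 for Ctsl and 3.20 and 3.01 for Ctse.

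Thymic epithelial cells are a known source of cathepsin L, so their markers were read in the same libraries. In the 4 DP libraries Foxn1 had 0 counts, Prss16 0 to 2, Krt8 0 to 1 and Psmb11 2 to 4 counts per library, against 289 to 5492 of Ctsl. Cldn4 had 23 to 64, Ccl25 12 to 44 and Epcam 6 to 20 counts there, and the 10 epithelial markers summed to 23.5 to 25.1 CPM in B6 DP and 18.2 to 20.1 CPM in BALB DP. In whole thymocytes they summed to 50.7 to 60.5 CPM in B6 and 102 to 112 CPM in BALB, where 2 of 9 tested were called higher in BALB and 1 lower. Of all tested genes, 1.98% were called higher and 2.61% lower in that comparison. The part of these cells in the difference of Ctsl was not tested in either population. In bulk RNA, fewer cells of a type and less RNA per cell cannot be told apart.

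**Figure D2:**
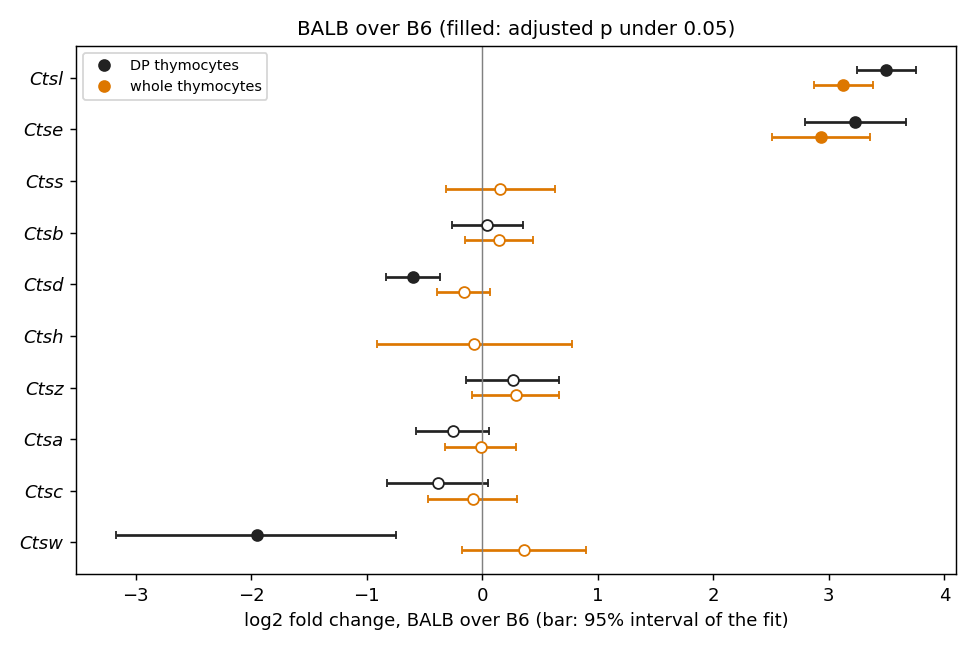
Log2 fold change of BALB over B6 for each cathepsin in DP and in whole thymocytes, with 95% intervals of the fit, filled where the adjusted p was under 0.05. Ctsl and Ctse lie between 2.94 and 3.49, Ctsd and Ctsw are called lower in DP thymocytes, and Ctss and Ctsh have no DP point because neither strain had more than 3 counts there.

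Ctsd and Ctsw went the other way in DP thymocytes. Ctsd (chr7:142375911-142388038, minus strand), the main aspartic protease of lysosomes, was at 192 and 185 CPM in B6 DP and 119 and 130 in BALB DP thymocytes. Whole thymocytes had 152 and 143 CPM in B6 and 137 and 126 in BALB. The B6 DP libraries stood above the other 6, and the strains did not overlap in either population. The fold was 1.51 lower in BALB DP (log2 -0.60 ± 0.11, adjusted p = 0.00394), and in whole thymocytes the log2 fold change of -0.16 ± 0.11 did not pass (adjusted p = 0.585, 95% interval -0.394 to 0.0693).

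Ctsw (chr19:5465043-5468507, minus strand), a protease known from cytotoxic lymphocytes, had 7 and 26 counts in B6 DP and 6 and 3 in BALB DP thymocytes. These were 2.2 and 5.94 CPM against 1.05 and 1.17 CPM. The B6 libraries were above the BALB ones but differed among themselves by more than the lower of them differed from BALB. The log2 fold change was -1.96 ± 0.55 (adjusted p = 0.0383), and the call was lost in 9 of the 17 alternative settings that tested it. Without B6 DP replicate 2 it was -0.98 (adjusted p = 0.475), without BALB DP replicate 1 it was -1.87 (adjusted p = 0.2), and without replicate 1 of both BALB groups -1.88 (adjusted p = 0.151). Leaving out B6 whole replicate 1 or either BALB whole library kept it at -1.95, with adjusted p of 0.0509, 0.0586 and 0.0581.

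In DP thymocytes, then, 2 members were called higher in BALB and 2 lower, where 13.0% of all tested genes were called, 6.85% higher and 6.14% lower. In whole thymocytes the same 2, Ctsl and Ctse, were called higher and 0 lower, where 4.59% were called, 1.98% higher and 2.61% lower. The median log2 fold change of the 10 members was 0.15 in DP thymocytes, or 0 with Ctss and Ctsh set to no difference, and 0.15 in whole thymocytes, against 0.0028 and 0.018 over all genes. In DP thymocytes the other 4 members with enough counts had values between -0.39 for Ctsc and 0.26 for Ctsz, none past the test. Ctsb, an endo- and carboxypeptidase, was at 0.04 ± 0.14 in DP (95% interval -0.264 to 0.352) and at 0.15 ± 0.13 in whole thymocytes (adjusted p = 0.745).

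Between the populations, Ctss, Ctsh and Ctsw separated most. Ctss (chr3:95526786-95556403, plus strand), the cathepsin S of antigen-presenting cells, had 0 and 2 counts in B6 DP and 3 and 0 in BALB DP thymocytes. Whole thymocytes had 103 and 113 counts in B6 and 123 and 118 in BALB, or 25.8, 27.3, 29.7 and 29.5 CPM. All 4 whole libraries lay far above all 4 DP libraries, while the strains lay close together. The ratio of whole to DP was 81.7 in BALB, with a 95% counting interval of 27.6 to 399 from 241 against 3 counts (adjusted p = 3.03e-06 by edgeR). In B6 the comparison passed with adjusted p = 8.35e-06. The BALB over B6 difference in whole thymocytes was 0.16 ± 0.21 on the log2 scale (95% interval -0.314 to 0.626).

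Ctsh (chr9:90054152-90076089, plus strand), an aminopeptidase, showed the same separation at a lower depth. It had 1 and 0 counts in B6 DP and 2 and 0 in BALB DP, against 20 and 24 in B6 whole and 22 and 20 in BALB whole thymocytes. The populations did not overlap. The ratio was 40.9 in B6 (95% counting interval 6.97 to 1650, adjusted p = 0.00182) and 21.4 in BALB (5.56 to 182, adjusted p = 0.00149), and these intervals cover counting error only.

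Ctsw had 98 and 79 counts in B6 whole and 125 and 103 in BALB whole thymocytes, or 24.5, 19.1, 30.2 and 25.7 CPM. Each whole library was above each DP library. Whole over DP was 2.33 ± 0.32 in B6 (5.03-fold, adjusted p = 0.000984) and 4.64 ± 0.40 in BALB (25.0-fold, adjusted p = 1.78e-05). The difference between those effects was 2.32 ± 0.61 and did not pass (adjusted p = 0.204). It passed without BALB DP replicate 2 (2.34, adjusted p = 0.0347) and with no filter on low counts (2.31, adjusted p = 0.00262), and without B6 DP replicate 2 it was 1.32 (adjusted p = 0.688). In whole thymocytes the strains did not differ beyond the test, at 0.36 ± 0.25 (95% interval -0.176 to 0.895).

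**Figure D3:**
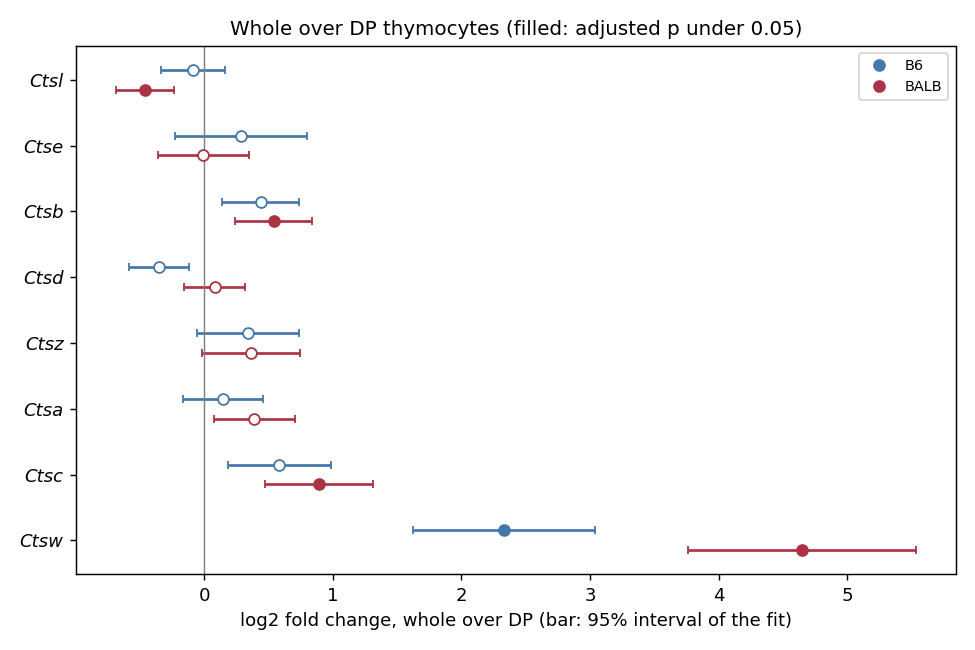
Log2 fold change between whole and DP thymocytes of each strain for the 8 cathepsins with more than 3 counts in every group, with 95% intervals of the fit, filled where the adjusted p was under 0.05. Ctsw is the farthest to the right in both strains, at 2.33 and 4.64, and Ctsl in BALB lies below 0.

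Whole thymocytes also hold other cells, whose markers were read in the same libraries. Of 13 tested myeloid and dendritic markers, 10 were called higher in whole thymocytes in each strain, and the list summed to 17.6 to 21.3 CPM in B6 DP, 104 to 109 in B6 whole, 20.1 to 21.7 in BALB DP and 136 to 148 in BALB whole thymocytes. Itgax, Cd209a, Flt3 and C1qa were at 0 counts in B6 DP and Cd209a, Clec9a and C1qb in BALB DP, while Itgam had 36 to 68 counts in DP and 46 to 54 in whole libraries and Csf1r 4 to 16 and 38 to 50. Of 9 tested NK and cytotoxic markers, 5 in B6 and 7 in BALB were called higher in whole thymocytes, 4 in BALB without replicate 1 of both BALB groups, and the list rose from 12.2 to 13.5 CPM to 72.3 to 76.7 in B6 and from 14.4 to 23.7 to 123 to 129 in BALB. Il2rb, Ncr1 and Klrd1 had 0 counts in all 4 DP libraries, and Gzma had 26 to 60. Of 10 mature thymocyte markers, 8 in B6 and 10 in BALB were called higher. Over all tested genes, 6.89% were called higher in B6 and 10.6% in BALB. Of the 13 myeloid markers, 10 in B6 and 7 in BALB had at most 3 counts in a compared group. So had 6 of the 9 NK and cytotoxic markers in each strain, and 1 and 3 of the mature ones. For such genes a higher call follows largely from how they passed the filter. The part of any of these cells in the cathepsin differences was not tested.

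Ctsc and Ctsb differed less between the populations and passed the test in BALB. Ctsc, the dipeptidyl peptidase that activates granzymes, was at 15.1 and 14.8 CPM in BALB DP and 30.9 and 24.5 in BALB whole thymocytes, without overlap. It was 0.89 ± 0.19 higher on the log2 scale (1.85-fold, adjusted p = 0.00781). B6 DP had 19.5 and 19.7 CPM and B6 whole 27.3 and 31.4, also without overlap, and the difference of 0.58 ± 0.18 did not pass (adjusted p = 0.0688). The difference between the strains' effects was 0.30 ± 0.27 (adjusted p = 0.706). Ctsc in BALB no longer passed in 2 of 18 alternative settings, among them without BALB whole replicate 1. Ctsc in B6 passed in 4 of 18, among them without BALB DP replicate 1 or 2.

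Ctsb (chr14:63122462-63145923, plus strand) was at 71.7 and 75.3 CPM in BALB DP and 109 and 104 in BALB whole thymocytes, and at 81.3, 61.7, 95.7 and 97.0 CPM in the B6 libraries in the same order. Whole libraries were above DP libraries in each strain, by 0.54 ± 0.14 in BALB (1.45-fold, adjusted p = 0.0187) and 0.44 ± 0.14 in B6 (adjusted p = 0.0686). The difference between those effects was 0.10 ± 0.19 (adjusted p = 0.889). The BALB call was lost in 4 of 18 alternative settings, among them without BALB whole replicate 1 or 2. The B6 value passed in 5 of 18, among them without BALB DP replicate 1 or 2. Ctsb and Fdft1 overlap on opposite strands in 774 exon bases, where reads without strand cannot be told apart. Other members share exon bases too. Ctsd, with 2127 exon bases, overlaps Gm49369 in 808, Ctsz overlaps Nelfcd in 10, and Ctsa overlaps Neurl2 and Pltp. Reads in such bases may be lost or split between the genes, and their part in the levels was not tested.

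Ctsl fell in whole against DP thymocytes of BALB by 0.46 ± 0.10 on the log2 scale (1.37-fold lower, adjusted p = 0.00987). This call was lost in 2 of 18 alternative settings, among them without BALB whole replicate 2 (-0.43). In B6 its difference was -0.09 ± 0.11 (95% interval -0.337 to 0.161). Ctsd in B6 was -0.35 ± 0.11 (adjusted p = 0.0571). The interaction, the strain difference in whole minus that in DP thymocytes, was -0.37 ± 0.15 for Ctsl (adjusted p = 0.416) and 0.43 ± 0.15 for Ctsd (adjusted p = 0.33), and neither passed except without BALB DP replicate 2 (adjusted p = 0.0497 and 0.0356).

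Ctsz and Ctsa moved little. Ctsz (chr2:174427493-174439039, minus strand), a carboxypeptidase, ranged from 21.5 CPM in B6 DP replicate 2 to 40.8 in BALB whole replicate 1. Ctsa (chr2:164832873-164841032, plus strand), which also protects lysosomal neuraminidase and beta-galactosidase, ranged from 57.6 CPM in BALB DP replicate 1 to 87.9 in BALB whole replicate 2. Neither passed the test in any of the 5 comparisons, and Ctsa in BALB whole over DP (0.39 ± 0.14, adjusted p = 0.0874) passed without replicate 1 of both BALB groups (adjusted p = 0.0178).

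By count, whole thymocytes had 3 members called higher and 0 lower in B6, where 10.2% of tested genes were called, 6.89% higher and 3.27% lower, and 5 higher and 1 lower in BALB, where 17.2% were, 10.6% higher and 6.59% lower. Ctss, Ctsh and Ctsw make up the 3 in B6 and are among the 5 in BALB, and for Ctss and Ctsh, and for Ctsw in BALB, a difference follows from how they passed the filter. Without replicate 1 of both BALB groups the count in B6 was 5 higher and 1 lower, as Ctsb, Ctsc and Ctsd then passed. The median log2 fold change of the members was 0.39 in B6 and 0.46 in BALB, against 0.0023 and -0.0042 over all genes. These medians include Ctss and Ctsh, and Ctsw in BALB, so the filter limits them in the same way. In the interaction 0 of the 10 members and 0.123% of tested genes, 14, were called by edgeR, 23 by DESeq2 and 8 by limma-voom, with 1243 at an unadjusted p under 0.05. The strain and population comparisons use the same 8 libraries, each group serving in a pair of them, so they are not independent.

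Divided by exon length, the order of the cathepsins differed between the strains. In B6 DP thymocytes Ctsd led at 88.5 ± 2.39 CPM per kb (SD, n = 2) and Ctsl followed at 42.9 ± 4.43. Ctsa, Ctsz and Ctsb came next at 19.2 ± 0.464, 17.4 ± 3.47 and 15.1 ± 2.92. The range of Ctsz overlapped those of Ctsa and Ctsb, which did not overlap each other. Ctse was at 6.57 ± 2.40, Ctsc at 3.67, Ctsw at 3.28 ± 2.13 and Ctss and Ctsh at 0.168 and 0.0971 CPM per kb. In BALB DP thymocytes Ctsl led at 482.5 ± 8.0, with Ctse at 63.3 ± 0.133 and Ctsd at 58.7 ± 3.76 next and all others at 20.5 or below. Ctsl held the top place in BALB and Ctsd in B6. The lengths include exon bases shared with other genes, 808 of them for Ctsd, and the effect of this on the order was not tested.

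In B6 whole thymocytes Ctsd at 69.3 ± 3.16 and Ctsl at 40.2 ± 4.0 CPM per kb led again, and Ctsz, Ctsa, Ctsb, Ctss and Ctsw lay between 17.6 and 21.8. In BALB whole thymocytes Ctsl was at 351 ± 11.9, Ctse at 63.0 ± 5.89 and Ctsd at 61.9 ± 3.76 CPM per kb. Ctse and Ctsd did not differ beyond their spread there, and Ctsz, Ctsw, Ctsb, Ctss and Ctsa followed between 21.1 and 26.6. Ctsc was at 5.20 and Ctsh was last at 3.19. These lengths are exons of the RefSeq-matched transcripts, 1.97 kb for Ctsl. With the exons of all coding transcripts, 6.33 kb, Ctsl stood at 13.4 CPM per kb in B6 DP, behind Ctsd, Ctsa, Ctsz and Ctsb. In B6 whole thymocytes it then stood at 12.5, behind Ctsd, Ctsz, Ctsa, Ctsb, Ctss and Ctsw. It still led BALB DP at 150 and BALB whole at 109.

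**Figure D4:**
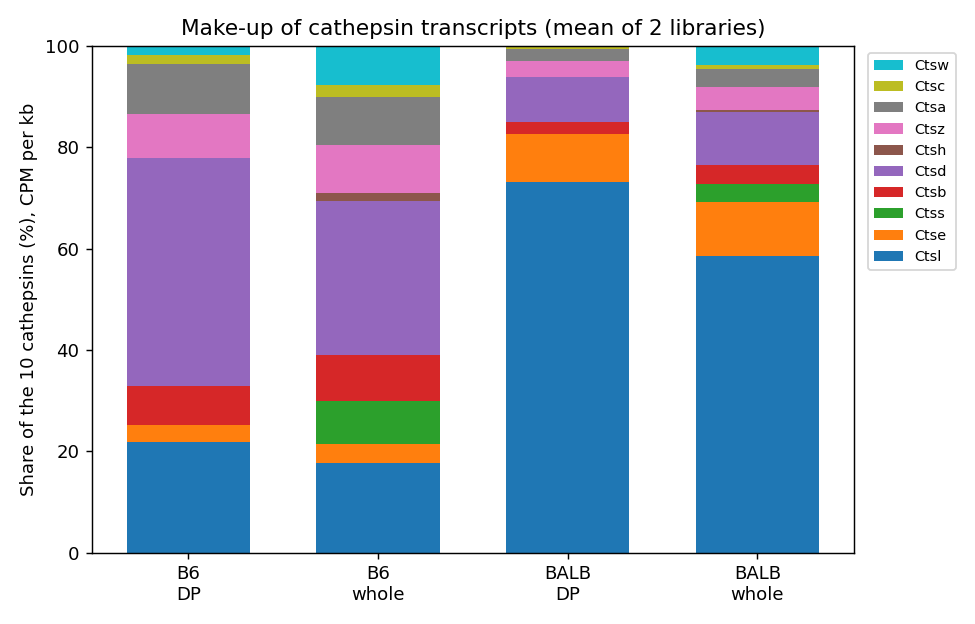
Share of each gene in the summed length-scaled level (CPM per kb) of the 10 cathepsins, in percent, as the mean of 2 libraries per group. Ctsl holds 21.8% and 17.7% in the B6 groups and 73.1% and 58.6% in the BALB groups, and Ctsd 45.0% and 30.5% against 8.88% and 10.3%.

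As a share of the summed length-scaled level of the 10 members, Ctsl made up 21.8% ± 1.25 in B6 DP and 17.7% ± 1.91 in B6 whole, but 73.1% ± 0.647 in BALB DP and 58.6% ± 0.758 in BALB whole thymocytes. With the exons of all coding transcripts these shares of Ctsl were 7.98%, 6.30%, 45.8% and 30.6%, and Ctsd held 52.9%, 34.8%, 17.9% and 17.4%. The plot of shares shows Ctsd as the largest part in B6 and Ctsl in BALB. A share falls when another member rises, so the lower Ctsd share in BALB says less than its CPM. Summed without length scaling, the members were at 459 to 497 CPM in B6 DP, 533 in each B6 whole library, 1380 to 1390 in BALB DP and 1260 to 1280 in BALB whole thymocytes. Other cathepsins added little. Of 13 listed, 9 had 0 counts in every library, among them the placental Ctsj, Ctsq and Ctsr, and Ctsf, Ctsg and Ctsk had 4, 5 and 50 counts over all 8 libraries. Ctso was the only other one tested, with 611 counts in all, and passed in none of the comparisons.

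The rest of the lysosomal pathway did not show differences of the size of Ctsl or Ctse between the strains. Of 26 lysosomal enzymes other than proteases, 0 were higher and 3 lower in BALB DP (median log2 fold change -0.30) and 0 higher and 1 lower in BALB whole thymocytes (median 0.081), where 6.14% and 2.61% of all tested genes were called lower. Among them Ppt1, the thioesterase that removes palmitate from proteins, was lower by -0.58 ± 0.11 in DP (adjusted p = 0.00655) and -0.57 ± 0.11 in whole thymocytes (adjusted p = 0.0128). Of 22 tested membrane and acidification genes, 2 were lower in BALB DP and 1 in BALB whole thymocytes. Npc1, which exports cholesterol from lysosomes, was at -1.32 ± 0.14 in DP (adjusted p = 0.00011) and -0.66 ± 0.14 in whole thymocytes (adjusted p = 0.0177), and Gm2a, the activator of ganglioside breakdown, at -1.51 ± 0.30 in DP (adjusted p = 0.00687).

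Of 13 sorting genes, 1 was lower in BALB DP and 0 differed in whole thymocytes. Of all tested genes, 13.0% were called in DP, 6.14% lower, and 4.59% in whole thymocytes. The sorting gene called was Igf2r, the large mannose 6-phosphate receptor, at -0.51 ± 0.11 (adjusted p = 0.0131). Of the MiT/TFE factors, the transcriptional regulators of lysosomal genes, 3 of 4 were tested and 0 were called in any comparison. The 7 tested cathepsin inhibitors, of 17 listed, included 0 called between the strains. Cst3, cystatin C, the most abundant of those named here, was at 24.8 ± 7.57 CPM in B6 DP and 29.4 ± 3.73 in BALB DP thymocytes.

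Between the populations, more of these genes were called, all of them higher in whole thymocytes, beside 6.89% of all tested genes in B6 and 10.6% in BALB. Of 9 other lysosomal proteases, 2 in B6 and 4 in BALB were higher, and of the inhibitors 2 in B6 and 3 in BALB. In each strain 2 of these tested proteases and 1 tested inhibitor had at most 3 counts in a compared group. For such genes the filter limits what a higher call means, as for the markers above. Lgmn, the asparaginyl endopeptidase that processes several cathepsins, rose by 3.54 ± 0.43 in B6 (adjusted p = 0.000442) and 2.14 ± 0.38 in BALB (adjusted p = 0.00293). Prss16, the thymus-specific serine protease of cortical epithelium, had 36 and 64 counts in B6 whole and 184 and 183 in BALB whole thymocytes against 0 to 2 in DP libraries, and was 1.87 ± 0.26 higher in BALB than B6 whole thymocytes (adjusted p = 0.00141). Cst7, cystatin F, an inhibitor in cytotoxic and myeloid cells, rose in BALB by 2.97 ± 0.81 (adjusted p = 0.0263) with 21 and 12 counts in whole thymocytes. Serpinb9, which inhibits granzyme B, rose by 1.48 ± 0.31 in BALB (adjusted p = 0.00729). Without replicate 1 of both BALB groups, 0 inhibitors and 2 of the other proteases passed in BALB.

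Genes of MHC class II antigen processing, the pathway Ctss serves in antigen-presenting cells, were higher in whole thymocytes for 7 of 10 tested in each strain, where 6.89% of all tested genes in B6 and 10.6% in BALB were, with medians of 3.19 in B6 and 2.93 in BALB on the log2 scale when genes at few DP counts are set to their counting ratio or floor. The list summed to 22.3 to 34.5 CPM in B6 DP and 237 to 255 in B6 whole, and to 17.9 to 19.4 in BALB DP and 199 to 223 in BALB whole thymocytes. Of the 10 tested, 2 in B6 and 4 in BALB had at most 3 counts in a compared group. For these a higher call follows largely from how they passed the filter. Of 5 tested cytotoxic granule genes, the setting in which Ctsc and Ctsw are best known, 2 were higher in whole thymocytes in each strain, or 1 in BALB without replicate 1 of both BALB groups. Gzma rose by 1.63 ± 0.25 in B6 (adjusted p = 0.00173) and Prf1, perforin, by 2.03 ± 0.56 in BALB (adjusted p = 0.0273). In each strain 1 of the 5 granule genes had at most 3 counts in a compared group.

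The genes whose pattern over the 8 libraries was closest to a member were found by the root mean square difference in centred log2 CPM. For Ctsl these were Usp44 (0.341), D430041D05Rik (0.351) and Greb1 (0.358), set against a spread of 1.66 in Ctsl itself. Greb1 averaged 3.01 and 3.58 CPM in B6 DP and whole and 49.1 and 37.6 CPM in BALB DP and whole thymocytes, much lower than Ctsl. For Ctse they were Gm3716 (0.314), Ptpn3 (0.326) and Inppl1 (0.333). For Ctss they were Zbtb7b (0.339), S1pr1 (0.352) and Atp8b4 (0.372), the first known from the CD4 lineage and the next from thymic egress. For Ctsw they were Iigp1 (0.188), Cd83 (0.281) and Pion (0.349), and for Ctsc Ly9 (0.107), BC068281 (0.135) and Tnfsf14 (0.136). Zbtb7b and S1pr1 averaged 0 to 0.114 CPM in the DP groups, as near 0 as Ctss. Iigp1, Cd83 and Pion averaged 0 to 0.728 CPM in the DP groups and 4.56 to 8.7 in the whole groups. Their likeness to Ctsw, whose own spread was 1.75, therefore rests partly on values near 0.

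Near Ctsl, Ctse and Ctsd on the chromosome a few tested genes were called between the strains. Of all tested genes, 13.0% were called in DP and 4.59% in whole thymocytes. The small counts near these members were not tested against those shares. Within 500 kb of Ctsl 8 genes were tested, of which 1 was called in DP, Cdc14b at -1.63 (adjusted p = 0.00676), and 1 in whole thymocytes, Habp4 at 1.15 (adjusted p = 0.0128). Within 500 kb of Ctse 8 were tested, 3 called in DP and 1 in whole thymocytes. Slc41a1, a magnesium transporter 152 kb from Ctse, was the one higher in BALB in both, at 1.68 in DP (adjusted p = 2.06e-05) and 1.57 in whole thymocytes (adjusted p = 6.64e-05). Nucks1 at 0.63 and Ikbke at -0.63 were the others in DP. Within 500 kb of Ctsd 8 were tested, 1 called in DP and 2 in whole thymocytes. Ifitm10, 2.16 kb from Ctsd, was lower in BALB in both, at -4.45 in DP (adjusted p = 4.31e-05) and -1.85 in whole thymocytes (adjusted p = 0.00569). H19 at -3.26 was the other in whole thymocytes.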

How the data were processed

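Transcripts were measured by RNA sequencing in 8 libraries, 2 for each strain and population. The submitters' processing notes name HISAT2 2.2.0, mm10, HTSeq and DESeq2 1.42.1. The deposited values are raw whole-number counts per gene symbol. Per the labels' protocols, the libraries came from the TruSeq RNA Sample Prep Kit v2, whose reads carry no strand, and 22.6% to 30.8% of reads were in genes. For the gene annotation and HTSeq's version and settings, nothing is given in the sources used here.

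Here edgeR 4.0.16 in R 4.3.3 fitted a quasi-likelihood model with a coefficient per group to the genes kept by filterByExpr, with trimmed mean of M values (TMM) scaling. A gene was called at a Benjamini-Hochberg adjusted p under 0.05 over all 11409 genes. Intervals of folds are from the fit, those of low counts are exact 95% counting intervals, and a group at 0 was set to a floor of 3 counts over the group. The script was tested on simulated data. Gene positions and exon lengths are from GENCODE M21 (GRCm38), and promoter sequences from RefSeq. Figures were drawn with matplotlib 3.10.9.

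The members and gene lists were chosen with earlier results of these data known. All 10 members are described. Up to 4 genes with the smallest p were eligible from each pathway list, and the 3 most alike genes for 5 members. Neighbours and single markers were named after their values were seen. Alternatives were DESeq2 1.42.0, limma-voom (limma 3.58.1), DESeq2 and upper-quartile scaling, no filter or a strict one (mean count of at least 50, and 1 CPM in 2 libraries), a replicate block, thinning, only the 4 libraries compared, and leaving out libraries. Replicate numbers were not used to pair the libraries, since no label ties them.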

Additional observations from a re-analysis of the deposited data

How the results depend on the processing

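The calls of Ctsl and Ctse between strains, of Ctsd in DP thymocytes and of Ctss, Ctsh and Ctsw between populations held in every setting that tested them, with log2 fold changes of 3.398 to 3.601 for Ctsl in DP and 3.03 to 3.23 in whole thymocytes, and 2.93 to 3.70 and 2.76 to 3.13 for Ctse. The strain call of Ctsw in DP thymocytes held in 8 of 17. Depth limits Ctss, Ctsh and Ctsw in DP thymocytes, where a few counts decide each value. In filtered settings the population calls of Ctss and Ctsh, and of Ctsw in BALB, follow largely from how they passed the filter. That they held there adds little.

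In the counts of all genes, no filter gave 839 genes for BALB over B6 in whole thymocytes and 364 for the interaction, with 1 member, Ctsw, called higher there. The strict filter, which tests fewer genes, gave 325 for BALB over B6 in whole thymocytes, 512 for whole over DP in B6 and 910 in BALB. The DESeq2 Wald test gave 748 for whole over DP in B6 and 23 for the interaction. With limma-voom the interaction had 8, and 1 member was called lower in BALB DP and 1 lower in B6 whole over DP. Thinning to the smallest library also left 1 member lower in BALB DP. Without replicate 1 of both BALB groups, 1 member was lower in BALB DP, 1046 genes differed between the strains in whole thymocytes, 2809 between populations in B6, with 5 members higher and 1 lower, and 139 in the interaction. Fitting only the 4 libraries compared gave 562 genes for DP thymocytes, with 1 member lower, 1050 for whole thymocytes, 2568 for whole over DP in B6, with 5 members higher and 1 lower, and 1101 in BALB, with 0 members lower. The cause of these shifts was not tested.

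With a replicate block, 1 member, Ctsd, was called lower in BALB DP, as Ctsw missed the threshold (-1.97, adjusted p = 0.0515), and no other member changed its call. Deviations of same-numbered libraries correlated at -0.0384 to 0.0574 over 11409 genes. With 2 libraries per group this cannot decide whether they pair. The numbers were not used as pairs because no label ties them.

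Leaving out each library in turn gave 509 to 3493 genes for BALB over B6 in DP thymocytes, with 1 to 2 members lower, and 214 to 966 in whole thymocytes. For whole over DP it gave 378 to 2201 genes in B6, with 3 to 5 members higher and 0 to 1 lower, and 1040 to 3976 in BALB, with 0 to 1 lower. The interaction had 0 to 1311 genes, with 0 to 2 members higher and 0 to 1 lower.

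The sign changed only for values that never passed the test. Leaving out a library, BALB over B6 ran from -0.1397 to 0.2496 for Ctsb in DP thymocytes, and in whole thymocytes from -0.1695 to 0.0434 for Ctsh, -0.2223 to 0.1723 for Ctsa and -0.2614 to 0.07449 for Ctsc. Whole over DP ran from -0.1979 to 0.01129 for Ctsl and -0.01613 to 0.7682 for Ctse in B6, and from -0.109 to 0.08123 for Ctse in BALB. Ctsa in BALB over B6 whole thymocytes was 0.004084 with upper-quartile scaling and 0.1479 without replicate 1 of both BALB groups. Ctse in BALB whole over DP was 0.05667 with upper-quartile scaling, 0.001096 with no filter, 0.05695 with the strict filter, 0.08803 without replicate 1 of both BALB groups and 0.03774 when thinned. Ctsd in BALB whole over DP was -0.04936 without replicate 1 of both BALB groups.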
